A study of Mus musculus with 11 samples.

Results

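PolyT-dense objects were segmented objects of mouse hippocampus sections in which the stain for polyadenylated RNA was brightest for their volume. An object was kept if its volume was at least 100 µm3 and it held at least 10 panel transcripts. A kept object counted as PolyT-dense if its PolyT signal per volume lay at or above the 95th percentile of its own section and its DAPI signal per volume below the 95th percentile. By this rule 8466 of 232117 kept objects, among 831598 segmented objects in all, were PolyT-dense. A further 3145 objects passed the PolyT threshold but were also DAPI-dense, and are called both-dense below. PolyT signal per volume, DAPI signal per volume and the floors on volume and transcripts chose the objects, so these values are given as a description and support nothing.

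The sections came from a MERFISH experiment, which counts single RNA molecules of a chosen gene panel in tissue through barcoded fluorescent probes, and all were 10 µm thick. Each of the 11 sections has 1 table with a line per object. The tables hold 1 transcript total per object and no genes, so the labelled tissue could not be checked against marker genes and no cell type is named. Per section, 349960 (CONTROL ICI 3) to 3164943 (CONTROL 3) transcripts were assigned to objects.

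All mice were adult wild-type males of the C57Bl/6 strain, aged 10 to 12 weeks. CONTROL mice (n = 3 sections) had no tumour and received isotype-matched antibodies. CONTROL ICI mice (n = 3) had no tumour and were given a pair of antibodies that block immune checkpoints (ICI): anti-CTLA-4, at 1 mg per dose and 3 doses a week, and anti-PD-1, at 200 µg per dose and 2 doses a week, for 3 weeks. MELANOMA mice (n = 2) were injected intradermally on both sides with 500000 cells of D4M-3A.UV2, a mouse melanoma line of the same strain, and received isotype antibodies after 1 week of engraftment. MELANOMA ICI mice (n = 3) carried the same tumours and received both inhibitors. Tumours lay in the skin, so the tumour groups model a melanoma outside the brain. Which animal each section came from is not in the labels, so p-values measure the spread between sections, which may be technical.

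Object identifiers placed the sections in 3 imaging runs. The first run imaged the sections with replicate number 1 of CONTROL, MELANOMA and CONTROL ICI, together with number 2 of both ICI groups. In run 2 were CONTROL 2, MELANOMA 2 and the MELANOMA ICI section with number 3. CONTROL 3, MELANOMA ICI 1 and CONTROL ICI 3 made up run 3. The sections of run 3 stood apart in the size of their objects and in how often the PolyT and DAPI stains coincided, so the results that rest on them are also given without them. No object identifier was shared between sections.

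As background, most messenger RNAs carry a tail of adenines, and a PolyT probe binds such tails whatever the gene, so the stain reports total polyadenylated RNA where the panel reports chosen transcripts. DAPI binds DNA and marks nuclei. In the hippocampus the cell bodies of pyramidal neurons and of granule cells of the dentate gyrus are packed into thin curved layers, between layers made mostly of dendrites and axons, and neuronal cell bodies are known to be rich in messenger RNA. Without genes, none of the bands described below was assigned to such a layer.

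The number of PolyT-dense objects per section was 170 (CONTROL ICI 3) to 1163 (CONTROL 2). In the 8 sections of runs 1 and 2 they made up 4.15% to 4.95% of kept objects, close to the 5% that the PolyT threshold alone would leave. In run 3 they made up 2.31% in CONTROL 3, 1.92% in CONTROL ICI 3 and 1.42% in MELANOMA ICI 1. The difference lies in the DAPI condition. Of the objects past the PolyT threshold, 53.8%, 61.7% and 71.6% were also DAPI-dense in these 3 sections, against 1.10% to 17.1% in runs 1 and 2.

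The PolyT threshold stood at 281.7 (MELANOMA ICI 3) to 584.8 (CONTROL ICI 3) units of 1000 arbitrary units per µm3, with a median of 384 over the sections. It was 1.24 to 1.75 times the section's median over kept objects. Median PolyT per volume was 1.34 to 1.95 times that of the other kept objects. Few lay far above the threshold: more than 2 times the threshold was reached by 66 objects in CONTROL 1, 23 in CONTROL ICI 1, 16 in CONTROL ICI 2, 14 in MELANOMA 1 and 0 to 7 in the other sections. Median DAPI per volume was also higher than in the other kept objects, by 1.04 to 1.82 times, although the rule removed the objects with the densest DAPI.

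At the edge of the definition the difference was gradual. Objects between the 95th and 96th percentile of PolyT per volume, DAPI-dense ones left out, had 3.40 to 11.7 transcripts per 100 µm3 (median of sections 7.41). Those between the 94th and 95th percentile had 3.46 to 11.4 (median 6.85), and the objects just inside had the higher value in 7 of 11 sections.

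PolyT-dense objects also held more panel transcripts for their size. In the CONTROL sections their median was 7.58, 14.3 and 6.96 transcripts per 100 µm3 in replicates 1, 2 and 3, against 3.83, 4.92 and 3.51 in the other kept objects. MELANOMA replicates 1 and 2 had 8.69 and 12.1 against 4.01 and 3.75. CONTROL ICI replicates 1, 2 and 3 had 3.90, 5.45 and 2.73 against 2.68, 3.10 and 1.94, and MELANOMA ICI replicates had 8.12, 6.53 and 11.5 against 2.41, 3.29 and 5.50. PolyT-dense objects were thus the richer ones in 11 of 11 sections, by 1.41 times (CONTROL ICI 3) to 3.37 times (MELANOMA ICI 1). The spread within a section was wide, since 59.4% (CONTROL ICI 3) to 99.3% of PolyT-dense objects lay above the median of the other kept objects. Between 7.06% (CONTROL ICI 3) and 63.6% (MELANOMA ICI 1) of them were among the 10% of kept objects with the most transcripts per volume.

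**Figure D1:**
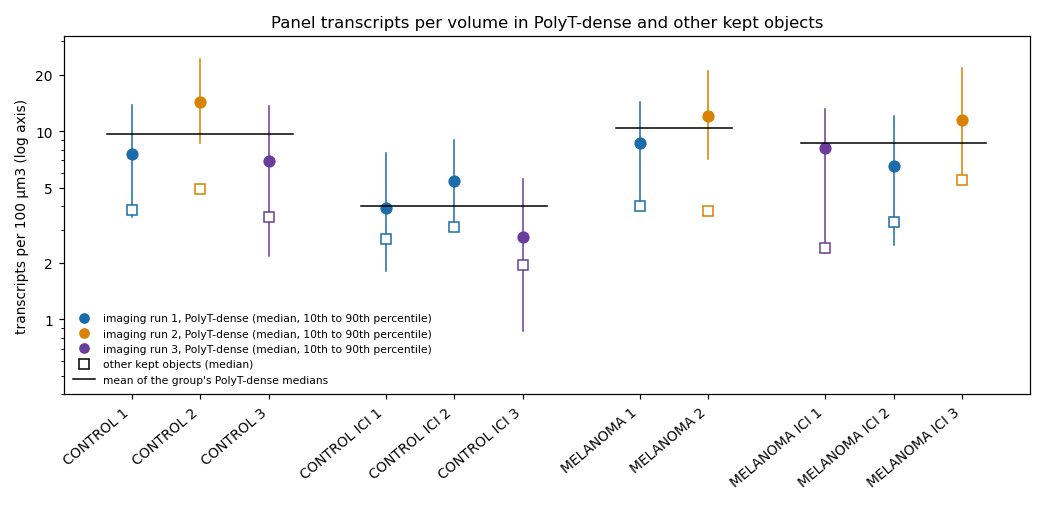
Transcripts per 100 µm3 in each of the 11 sections, grouped by tumour and treatment. Points are section medians of PolyT-dense and of other kept objects. Vertical bars span the 10th to 90th percentile of a section's PolyT-dense objects, and horizontal lines are group means of the PolyT-dense medians. The PolyT-dense median lies above the other in every section. The 3 CONTROL ICI sections (2.73 to 5.45) lie below the 3 CONTROL sections (6.96 to 14.3). Medians of the other kept objects separate the same way (1.94 to 3.10 and 3.51 to 4.92).

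Both PolyT and transcripts per volume are divided by the same volume, which alone would tie them together. The comparison was therefore repeated on transcript number, with PolyT-dense and other kept objects compared within 10 classes of equal number by volume. At matched volume PolyT-dense objects held more transcripts, by 0.91 on the log2 scale (SD 0.37 over 11 sections), or 1.88-fold. The difference was above 0 in 11 of 11 sections, 0.14 (CONTROL ICI 3) to 1.42 (MELANOMA 2), with an exact sign-flip p of 0.000977, the smallest that 11 sections allow, and 0.00195 after Benjamini-Hochberg adjustment over the 8 measures compared. Without run 3 it was 0.96. It averaged 0.78 in the 5 sections of run 1, 1.25 in the 3 of run 2 and 0.77 in the 3 of run 3. Against kept objects of like volume and like DAPI per volume it was 0.76, above 0 in 10 of 11 sections, and against objects of the same imaging field 0.69. When the brightness was taken from the high-pass filtered PolyT image, the difference fell to 0.11 and did not pass (exact sign-flip p adjusted 0.204). That image picks mostly other objects, and a median of 21.0% of the PolyT-dense objects were also dense in it.

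The difference was wider in the largest than in the smallest volume class in 10 of 11 sections. Its median over sections was 0.25 on the log2 scale in the smallest class and 1.73 in the largest. MELANOMA ICI 1 was the exception, with 1.02 and 1.01, and the rise was not even, since CONTROL 2 reached 2.04 in class 6 and 1.73 in class 10. In 10 sections PolyT-dense objects held more transcripts in each of the 10 volume classes. CONTROL ICI 3 was the exception, with more in 7 of 10. Every kept object has at least 10 transcripts, whatever its volume.

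**Figure D2:**
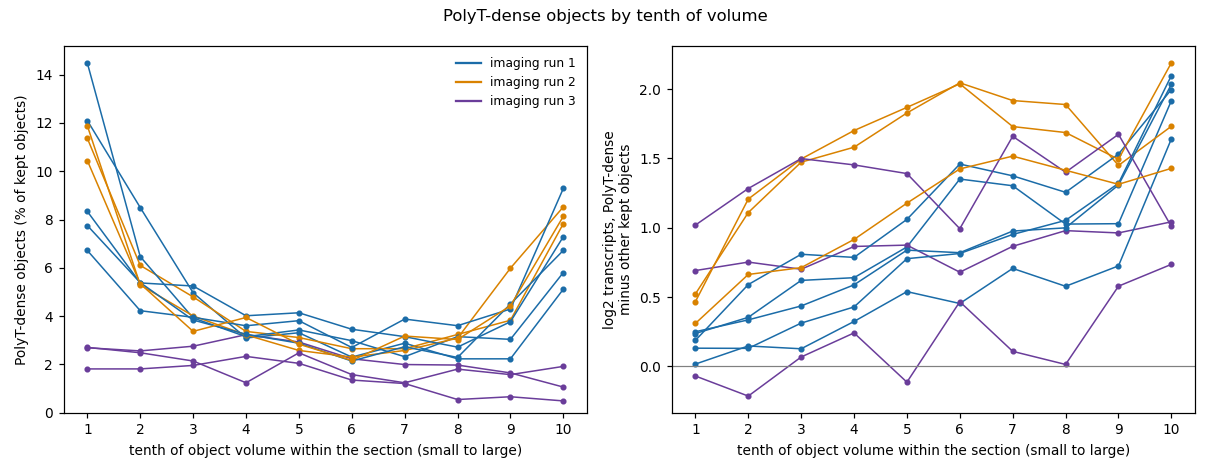
Transcripts and abundance of PolyT-dense objects by volume class, 1 line per section coloured by imaging run, from the smallest to the largest 10% of kept objects. The log2 difference in transcripts from other kept objects of the class rises from a median of 0.25 to 1.73, and the share of PolyT-dense objects in the smallest and the largest class is higher in runs 1 and 2 than in run 3.

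The relation ran across the classes of PolyT below the top one and not only at the upper end, but it was uneven within the top class. All kept objects of a section were cut into 20 classes of equal number by PolyT per volume, DAPI-dense ones were then left out, and transcripts were compared with objects of like volume. In run 3 this left fewer objects in the top class, 1063 in CONTROL 3, 169 in CONTROL ICI 3 and 494 in MELANOMA ICI 1, than in the lowest, which held 2305, 444 and 1737. The lowest class held fewer transcripts than its volume would give, by -1.31 to -0.86 on the log2 scale. From class to class the value rose in 16 to 19 of 19 steps. The top class was the highest in 9 of 11 sections. The exceptions were CONTROL 3, which peaked in class 19, and CONTROL ICI 3, which peaked in class 17 and had only 0.14 in the top class. Across kept objects of a section, Spearman's rho of PolyT per volume was 0.41 to 0.73 with transcripts per volume and 0.42 to 0.73 with DAPI per volume. These correlations run over 8865 to 46099 objects that share a section, a stain and a volume as divisor, and they are given as a description.

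**Figure D3:**
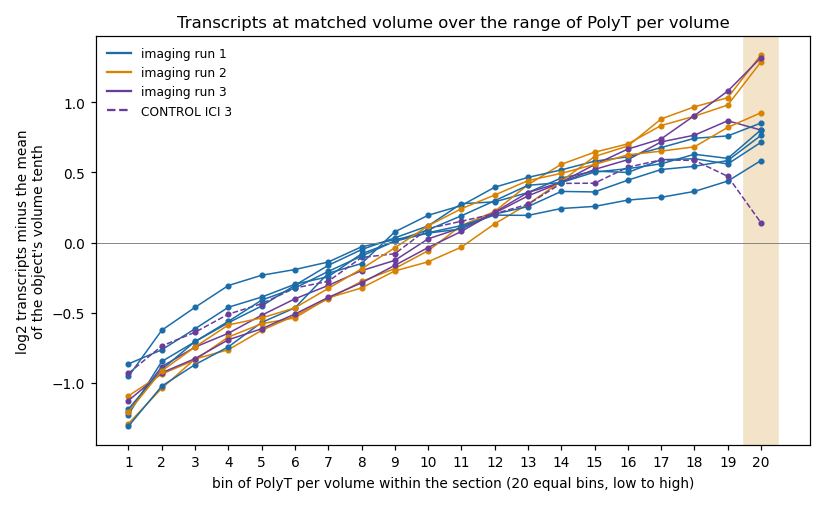
Transcripts at matched volume (log2 difference from kept objects of the same volume class) in 20 classes of PolyT per volume, 1 line per section coloured by imaging run. Values climb from between -1.31 and -0.86 in the lowest class to between 0.14 and 1.34 in the top class, which lies below the class before it in CONTROL 3 and CONTROL ICI 3.

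Objects dense in both stains held fewer transcripts than those dense in PolyT alone in runs 1 and 2, but not throughout run 3. At matched volume PolyT-dense objects held more than both-dense ones by 0.48 on the log2 scale, above 0 in 10 of 11 sections (exact sign-flip p 0.0225, also 0.0225 adjusted over the 2 comparisons). In run 3, where both-dense objects were most numerous, the 3 sections gave 0.13, -0.82 and 0.28 for CONTROL 3, CONTROL ICI 3 and MELANOMA ICI 1, and without run 3 the value was 0.71. Both-dense objects numbered only 12 (MELANOMA 2) to 116 (CONTROL ICI 2) per section in runs 1 and 2. Without matching, median transcripts per volume were higher in PolyT-dense than in both-dense objects in 8 of 8 sections of these runs. In run 3 they were higher in only 1 of 3 sections, MELANOMA ICI 1. The call at matched volume was lost without the floor on transcripts (0.56, exact sign-flip p adjusted 0.0557), after matching on DAPI (0.23, 0.0508) and with the high-pass filtered stain (0.039, 0.807). Objects that were DAPI-dense only were, by construction, as many as the PolyT-dense ones. PolyT-dense objects exceeded them by 1.07, in 10 of 11 sections (exact sign-flip p adjusted 0.00391). CONTROL ICI 3 was again the exception, at -0.48. Without run 3 the difference was 1.25, and with the high-pass filtered stain it was 0.21 and did not pass (exact sign-flip p adjusted 0.131).

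Together the PolyT-dense objects held 8.43% to 15.0% of the transcripts of kept objects in runs 1 and 2, in 4.36% to 5.92% of their volume. In run 3 they held 3.59% (CONTROL 3), 2.13% (CONTROL ICI 3) and 3.03% (MELANOMA ICI 1), in 2.05%, 1.84% and 1.18% of the volume. Their share of transcripts exceeded their share of volume in all 11 sections. A PolyT-dense object held a median of 27 (CONTROL ICI 1) to 98 (MELANOMA ICI 1) transcripts, against 17 to 50 in the others.

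In size PolyT-dense objects came from both ends of the range. Their median volume was 412, 553 and 1420 µm3 in the CONTROL sections and 554 and 751 µm3 in the MELANOMA sections. It was 830, 701 and 1340 µm3 in the CONTROL ICI sections and 1377, 702 and 432 µm3 in the MELANOMA ICI sections, in order of replicate number. This was lower than in the other kept objects in 10 of 11 sections (CONTROL ICI 1 excepted). Yet in runs 1 and 2 the smallest volume class held 14.6% to 29.7% of them and the largest 10.9% to 20.2%, both above the 10% of an even spread. In run 3 the smallest class held 11.7% to 14.1% and the largest 3.44% to 10.0%. Volume is the divisor in the rule, so these shares are a description.

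Shape depended on the imaging run. Anisotropy, the ratio of an object's long to its short axis, was lower than in other objects of like volume in 8 of 8 sections of runs 1 and 2 and higher in 3 of 3 of run 3. Over all sections the log2 difference was -0.038 and did not pass (exact sign-flip p adjusted 0.108). It passed without CONTROL 3 (-0.049, exact sign-flip p adjusted 0.0469), without MELANOMA ICI 1 (-0.049, 0.0365) and without run 3 (-0.075, 0.00893). The perimeter-to-area score was also lower in 8 of 8 sections of runs 1 and 2 and higher in 3 of 3 of run 3, with a mean of -0.024 (exact sign-flip p adjusted 0.138). It passed without run 3 (-0.048, exact sign-flip p adjusted 0.00893) but with no single section left out. Solidity, a score whose scale the sources do not define and which reached 7.39, was higher by 0.22 in PolyT-dense objects, in 8 of 11 sections (exact sign-flip p adjusted 0.0469). That call was lost when any 1 of the 8 sections of runs 1 and 2 was left out, over a range of 0.18 to 0.26 for all 11 sections left out in turn, and the mean was -0.094 in run 3.

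PolyT-dense objects lay together. Among the 10 kept objects nearest to a PolyT-dense one, 27.6% (CONTROL ICI 2) to 53.5% (CONTROL 2) were PolyT-dense too, against 1.18% to 3.53% around the other kept objects. Corrected for the volumes of those neighbours, this was 3.18 on the log2 scale above an even spread (SD 0.69), or 9.08-fold. It was above 0 in 11 of 11 sections, 2.60 (CONTROL ICI 2) to 4.61 (CONTROL ICI 3), with an exact sign-flip p adjusted of 0.00195. The mean of run 3 was 4.18, above every section of the other runs, whose mean was 2.81. The measure divides by the expected share, and PolyT-dense objects were a mean of only 1.88% of kept objects in run 3. Their observed share among the 10 nearest averaged 38.0% in run 3, 37.3% in run 1 and 42.8% in run 2. The rule sets 1 threshold for a whole section, and imaging fields accounted for 25.4% to 52.6% of the variance of log PolyT per volume. With PolyT taken relative to the median of its own imaging field, the clustering was 2.42 (exact sign-flip p adjusted 0.0026), and with the high-pass filtered stain it was 0.72 (exact sign-flip p adjusted 0.00977).

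Their excess around one another fell with distance, at every step in 10 of 11 sections. Within 25 µm the share of PolyT-dense objects was 8.95 to 24.2 times the section's share, with a median of 11.3. At 25 to 50 µm it was 4.44 to 14.3 times, at 50 to 100 µm 2.62 to 11.7 times and at 100 to 200 µm 1.65 to 6.93 times. The excess thus reached well beyond a single object. At 200 to 400 µm it was 1.21 to 3.07 times. CONTROL ICI 3 was the exception to the fall, at 1.97 times there and 2.80 times at 400 to 800 µm. At 400 to 800 µm the multiple was 0.934 to 2.80, still above 1 in 10 of 11 sections.

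**Figure D4:**
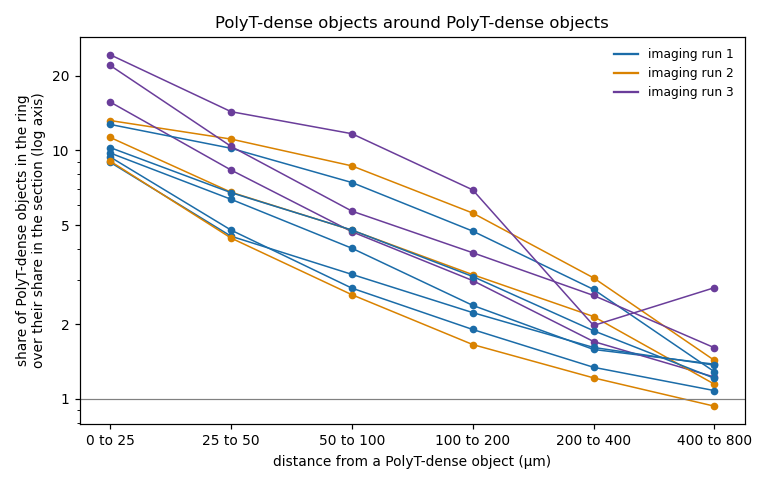
Share of PolyT-dense objects among kept objects at increasing distance from a PolyT-dense object, as a multiple of the section's share on a log axis, 1 line per section coloured by imaging run. The multiple falls from 8.95 to 24.2 within 25 µm to between 0.934 and 2.80 at 400 to 800 µm, with a rise over the last step in CONTROL ICI 3.

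On the maps the PolyT-dense objects drew curved bands. PolyT-dense objects linked over at most 75 µm, in patches of at least 5, took in 66.0% to 85.8% of them. Patches were defined after the maps had been seen and are a description. The largest patch held 752 of 1163 PolyT-dense objects in CONTROL 2, 511 of 882 in MELANOMA 1 and 436 of 1074 in MELANOMA 2, and spanned 1667, 1244 and 1456 µm. In the other sections of runs 1 and 2 it held 18.9% to 40.6% of them. In run 3 it held 101 in CONTROL 3, 75 in CONTROL ICI 3 and 101 in MELANOMA ICI 1, over 619, 344 and 852 µm. There both-dense objects formed the larger patches instead. Their largest patch held 1027, 141 and 1193 objects, against at most 19 in any section of runs 1 and 2, and its span was not measured. PolyT-dense objects filled a small part of the tissue: 50% of them lay in 1.13% to 5.85% of the 100 µm squares that held objects.

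**Figure D5:**
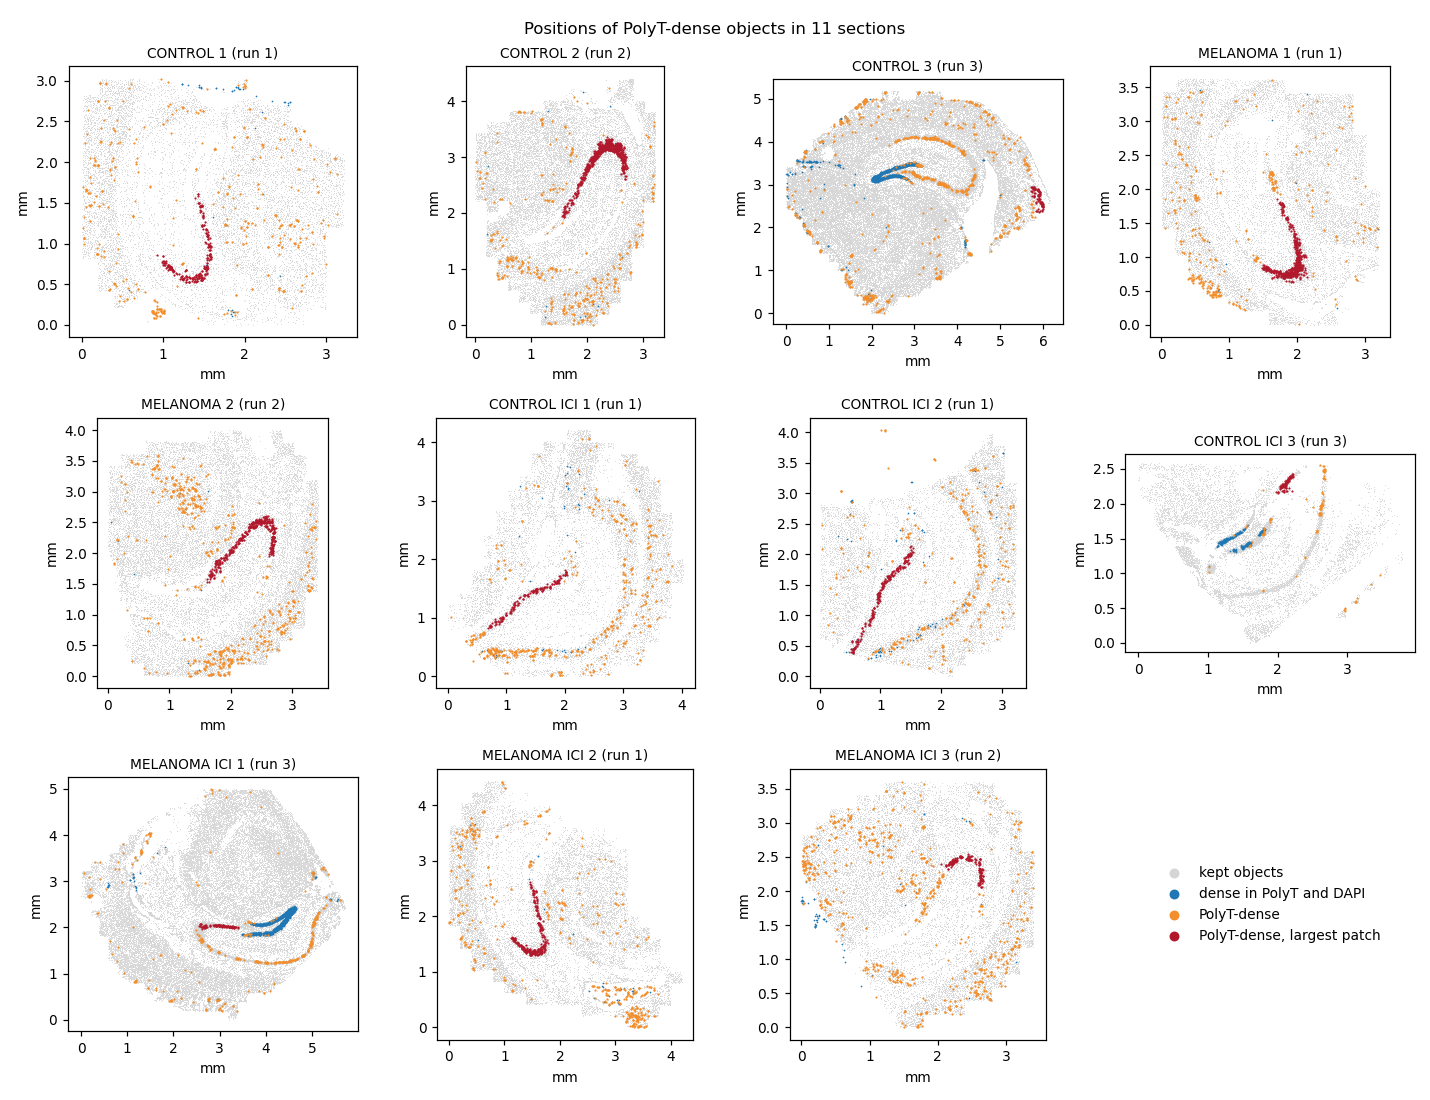
Positions of kept objects in each of the 11 sections, in mm, with the largest patch of PolyT-dense objects, the other PolyT-dense objects and both-dense objects in separate colours. In runs 1 and 2 the largest patch forms a curved band or a part of one, up to 1999 µm long. In the 3 sections of run 3 the largest patch of both-dense objects holds more objects than that of PolyT-dense ones.

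Objects of the largest patch differed from the other PolyT-dense objects. They had more transcripts per 100 µm3 in 10 of 11 sections, with 16.3 against 11.5 in CONTROL 2, 15.4 against 10.5 in MELANOMA 2 and 17.3 against 10.5 in MELANOMA ICI 3. CONTROL 3 was the exception, at 2.97 against 7.35, and in CONTROL ICI 3 the values lay close, at 2.88 against 2.69. Median DAPI per volume was lower inside the largest patch in 11 of 11 sections. In runs 1 and 2 richness in transcripts was shared by objects beside the patch. Kept objects within 25 µm of a patch object that were not PolyT-dense were compared with the remaining ones of like volume. They held more in 8 of 8 sections of runs 1 and 2, by 0.50 to 1.02 on the log2 scale. In run 3 they held more in 1 of 3, with -0.23 in CONTROL 3, -0.054 in CONTROL ICI 3 and 1.15 in MELANOMA ICI 1. Outside the largest patch, PolyT-dense objects still held more transcripts than other kept objects of like volume in 10 of 11 sections, 0.48 to 1.26 in runs 1 and 2 and -0.044 in CONTROL ICI 3.

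PolyT-dense objects also sat where kept objects were crowded, but not under every way of choosing the objects. The median number of kept objects within 50 µm was 17 to 37 around them and 14 to 21 around the others. At matched volume the log2 difference was 0.45 (SD 0.18), above 0 in 11 of 11 sections (exact sign-flip p adjusted 0.00195), and 0.43 without run 3. The call was lost with PolyT taken relative to the imaging field (0.085, exact sign-flip p adjusted 0.0654), at the 99th percentile (0.28, 0.0906), without the floor on transcripts (0.11, 0.312) and with the high-pass filtered stain (-0.0061, 0.813).

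Their position in the section differed between the runs. In runs 1 and 2 PolyT-dense objects lay deeper inside the tissue than others of like volume, by 0.28 on the log2 scale of the distance to the section edge, in 7 of 8 sections (-0.0033 in MELANOMA ICI 3, exact sign-flip p adjusted 0.0156 without run 3). In run 3 they lay nearer to the edge in 3 of 3 sections, with a mean of -0.47. Over all 11 sections the value was 0.074 (exact sign-flip p adjusted 0.522), and with no condition on DAPI it was higher and passed. In run 3 that condition removed 53.8% to 71.6% of the objects past the PolyT threshold, against 1.10% to 17.1% in runs 1 and 2. What part this had in the difference between runs was not tested.

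PolyT-dense objects lay closer to the border of their imaging field, by 5.83 µm (SD 2.90) at matched volume, in 11 of 11 sections (exact sign-flip p adjusted 0.00195), and by 6.15 µm without run 3. Within 20 µm of a border lay 37.1% to 55.1% of them and 32.1% to 37.8% of the others. Near a border PolyT per volume was 0.988 to 1.03 times the value farther in, and transcripts per volume were 0.831 to 0.950 times. The border was taken as the box around the object centres of a field. Without objects within 20 µm of it, the difference in transcripts at matched volume was 0.93. Why PolyT-dense objects lay nearer to the border was not tested.

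The group comparison asked whether checkpoint inhibitors or the tumour went with a change in PolyT-dense objects. Effects are differences of mean log2 section values, tested by exact permutation of section labels within the other factor (smallest p 0.005), with adjustment over 5 measures per contrast. Run 3 and the other runs each hold sections of several groups, so each effect was also taken within runs (smallest p 0.0417).

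Under ICI, PolyT-dense objects had 0.593 times the transcripts per volume, a difference of -0.75 on the log2 scale, whose exact permutation p of 0.035 became 0.175 after adjustment. Without a tumour the group means were 9.62 ± 4.09 transcripts per 100 µm3 under isotype antibodies (SD, n = 3) and 4.03 ± 1.37 under ICI (SD, n = 3). With a tumour they were 10.4 ± 2.38 (SD, n = 2) and 8.70 ± 2.52 (SD, n = 3). The CONTROL and CONTROL ICI sections did not overlap, while the MELANOMA sections (8.69 and 12.1) overlapped those of MELANOMA ICI (6.53 to 11.5). Within runs the effect was -0.64, negative in 4 of 4 comparisons (exact permutation p 0.0833, adjusted 0.417), and without run 3 it was -0.71 (exact permutation p 0.111). The other kept objects moved the same way, by -0.41 (exact permutation p 0.145), and their CONTROL and CONTROL ICI sections did not overlap either. Nor did the transcript totals of the sections, at 349960 to 568936 in CONTROL ICI and 633088 to 3164943 in CONTROL. What part these totals had in the ICI effect was not tested. Transcripts of PolyT-dense over other objects at matched volume differed by -0.28 (exact permutation p 0.16, adjusted 0.4), so a change of their own under ICI was not shown. This value lay between -0.41 without MELANOMA 1 and -0.15 without MELANOMA 2, and was -0.034 with the high-pass filtered stain.

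With a tumour, transcripts per volume of PolyT-dense objects were higher by 0.65 in log2 (p 0.075 by exact permutation, adjusted 0.25) and by 0.50 within runs, positive in 3 of 4 comparisons (exact permutation p 0.292). Transcripts at matched volume were higher by 0.36 (exact permutation p 0.1, adjusted 0.25) and by 0.39 within runs, positive in 4 of 4 comparisons (exact permutation p 0.0833). Without CONTROL 2, the section with the highest transcripts per volume of PolyT-dense objects, both passed, at 0.81 and 0.45 (exact permutation p adjusted 0.0417 for each). Without run 3 they were 0.44 and 0.15 and did not pass (exact permutation p adjusted 0.926 for each). The ICI effect on transcripts per volume was -1.23 without and -0.27 with a tumour. That difference of 0.96 gave an exact permutation p of 0.22 (0.805 adjusted), under a null of no ICI effect in either state.

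The clustering of PolyT-dense objects passed in none of the contrasts. Their volume and the height of the PolyT threshold over the section's median are built from values that the rule used, and are a description. On the log2 scale volume differed by 0.32 under ICI and by -0.20 with a tumour, and the threshold by 0.029 and -0.032. Of the 9 group tests of the other measures, 1 had an exact permutation p under 0.05 before adjustment and 0 after it, and within runs 0 did. Runs accounted for 77.3% of the variance among sections in log2 volume of PolyT-dense objects and 87.7% of that in clustering. The 4 groups accounted for 9.87% and 5.63%. Transcripts per volume went with both, at 54.0% for runs and 68.2% for groups, shares that overlap because the groups are spread unevenly over the runs.

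Objects too poor in transcripts to be kept reached the same PolyT signal in a small share, though not always in small numbers. Of the objects of at least 100 µm3 with fewer than 10 transcripts, 0.370% to 2.56% lay at or above the threshold of their section. These were 96 to 720 objects in each section of runs 1 and 2 and 113 to 201 in run 3. In CONTROL 1 they numbered 720, against 695 kept objects past the PolyT threshold, and in MELANOMA 2 96 against 1086. Of the objects under 100 µm3 in runs 1 and 2, 2.98% to 8.14% lay at or above the threshold.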

How the data were processed

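The PolyT-dense objects, the measures and the comparisons were chosen with earlier results of these data known. The labels' protocols describe male mice, 10 µm sections, probe hybridisation and gel embedding. How objects were segmented and transcripts decoded is not given in the sources used here. Transcripts per object are deposited raw counts, summed over the panel, per the file headers. For PolyT and DAPI the deposited tables hold an intensity per object, not divided by volume, in arbitrary units that can differ between runs, and the report gives PolyT in units of 1000. Volume is a deposited signal with no unit in the files, and it was taken as µm3, as positions were as µm. Anisotropy is a deposited ratio. Solidity and perimeter-to-area are deposited scores of undefined scale. Precision is limited by the number of sections, each with 349960 to 3164943 transcripts.

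Everything else was computed here with Python 3.11.15, numpy 2.4.6, pandas 2.3.3, scipy 1.17.1 and scikit-learn 1.9.0. Objects were never replicates. Each section gave 1 value per measure, the difference between PolyT-dense and all other kept objects averaged over 10 volume classes with weights by number of PolyT-dense objects. Values over sections were tested by exact sign flips, two-sided, and group effects by two-sided exact permutation (200 arrangements, 24 within runs), adjusted over 5 measures per contrast, volume and the PolyT threshold included. The 2 comparisons with DAPI-dense objects, matching within fields or on DAPI, leaving out run 3 and leaving out border objects were added after the data were seen. The section edge was the outline of 100 µm squares holding objects. Imaging runs were read from the leading digits of object identifiers. Scripts were tested on simulated data. No rule for naming genes applied to tables without genes. Replicate numbers of the labels were not used to pair the sections in the main tests.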

Additional observations from a re-analysis of the deposited data

How the results depend on the processing

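The excess of transcripts at matched volume ranged from 0.11 to 1.56 on the log2 scale over its alternatives. It kept its call in all of them that allow a test except the high-pass filtered stain (0.11). The clustering of PolyT-dense objects kept its direction in all alternatives and its call in those that allow a test. It was 4.18 in imaging run 3 alone, 5.31 and 2.16 at the 99th and 90th percentile and 0.72 with the high-pass filtered stain. The expected share that it divides by also changes with the run and with the percentile. Distance to the field border kept both as well, at -8.92 to -3.23 µm. Counting more or fewer neighbours and finer volume classes ended no call.

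The stricter filter of 200 µm3 and 50 transcripts turned perimeter-to-area (0.016), solidity (-0.12), the ICI effect on clustering (-0.049) and the interaction for the PolyT threshold over its median (0.00068). Without the floor on transcripts the crowding (0.11) and the excess over both-dense objects (0.56) lost their call, and edge distance (-0.13) and the interaction for volume (0.70) turned. At the 90th percentile anisotropy (-0.050) and perimeter-to-area (-0.039) passed. At the 99th solidity (0.0023) and crowding (0.28) did not pass. With no condition on DAPI anisotropy (-0.055), perimeter-to-area (-0.033) and edge distance (0.26) passed and the ICI effect on clustering turned (-0.17). Thresholds within volume classes let perimeter-to-area pass (-0.040) and turned the ICI effect on clustering (-0.051) and the interactions for volume (0.024) and clustering (-0.13).

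PolyT relative to the imaging field let anisotropy (-0.043), perimeter-to-area (-0.049) and edge distance (0.24) pass, ended crowding (0.085) and turned the interaction for clustering (-0.030). High-pass filtered PolyT turned anisotropy (0.029), solidity (-0.36), crowding (-0.0061), edge distance (-0.10) and the interaction for volume (0.62), and the excesses over both-dense (0.039) and DAPI-dense objects (0.21) did not pass. Matching within fields let anisotropy (-0.052) and perimeter-to-area (-0.039) pass and turned edge distance (-0.0023). Matching on DAPI turned perimeter-to-area (0.0036) and solidity (-0.022), and the excess over both-dense objects did not pass (0.23). Without objects near the field border solidity did not pass (0.20). The comparison with both-dense objects could not be made at the 99th percentile or with no condition on DAPI.

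Within runs the tumour effect on volume (0.20) and the interaction for clustering (-0.45) turned. Without run 3 anisotropy (-0.075), perimeter-to-area (-0.048) and edge distance (0.28) passed. The ICI effects on the PolyT threshold over its median (-0.065) and on clustering (-0.20) turned, as did the tumour effects on both (0.021 and 0.018). Run 3 alone turned anisotropy (0.059), perimeter-to-area (0.040), solidity (-0.094), edge distance (-0.47) and the excess over both-dense objects (-0.14). The causes were not tested.

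Leaving out single sections gave 0.18 to 0.26 for solidity and -0.049 to -0.031 for anisotropy. ICI effects ranged from -0.41 to -0.15 for transcripts at matched volume, -0.044 to 0.086 for the PolyT threshold over its median and -0.094 to 0.41 for clustering. Tumour effects ranged from 0.52 to 0.81 for transcripts per volume, 0.22 to 0.49 for transcripts at matched volume, -0.42 to 0.066 for volume, -0.089 to 0.042 for the PolyT threshold and -0.44 to 0.12 for clustering. Interactions ranged from -0.17 to 0.095 for the PolyT threshold, -0.73 to 0.19 for volume and -0.17 to 0.96 for clustering.

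Same-numbered sections did not deviate together in a regular way: 7 of 15 pairs correlated over 0.1, within a range of -0.84 to 0.86. Pairs of unlike number were not compared, so these values cannot decide whether the numbers pair the sections. With the replicate number as a block the ICI effect on transcripts per volume was -0.94 (exact permutation p 0.0625, the smallest possible). The interaction for volume turned (0.19). No group test could fall under 0.05 with that block. Values by volume class rest on as few as 11 PolyT-dense objects, and those of the largest patch on as few as 75.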
